A study of Mus musculus with 12 samples.

Results

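The 10 genes described here, all known to be switched on by the transcription factor p53, were followed through gastrocnemius and soleus muscle of mice with and without a muscle deletion of Phf2: Cdkn1a, Mdm2, Ccng1, Bax, Aen, Eda2r, Zmat3, Trp53inp1, Phlda3 and Ei24. They are 10 of the 34866 genes in the deposited expression tables, and each was found in both tables through its Ensembl identifier. The 10 were selected on their knockout (KO) against control levels in both muscles, so those levels are given as a description and support no test. All animals were male C57BL/6 mice aged 4 weeks, and all carried Phf2 flox/flox. Controls (Ctrl) lacked the Acta1 Cre transgene and KO mice carried it. The Acta1 promoter drives Cre in skeletal muscle fibres, so vessel, connective tissue and immune cells keep Phf2. There were 3 libraries for each muscle and genotype, 12 in all, made from total RNA with a directional kit, and the study asked what PHF2 does in skeletal muscle.

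p53, encoded in mice by Trp53, is a transcription factor that cells stabilise when their DNA is damaged or their ribosomes and metabolism are disturbed. It binds a pair of adjoining decamers in the promoters or introns of its targets, which stop the cell cycle, trigger or restrain cell death, and feed back on p53 itself. In muscle fibres, which no longer divide, the best known of these targets, Cdkn1a, also responds to denervation, disuse and ageing. PHF2 is a histone demethylase of the Jumonji family that removes methyl groups from histone H3 lysine 9.

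The start regions of the members differ in whether they hold the decamer. RefSeq windows of GRCm38.p6, from 250 bases before to 50 bases after an annotated start, were found for 8 of the 10 genes, with Zmat3 and Trp53inp1 having no entry. The published p53 decamer consensus reads the same on both strands, so only the strand of the gene was searched. The consensus was in 6 of these 8 genes, Cdkn1a, Ccng1, Bax, Aen, Ei24 and Mdm2. It was in 9.554% of the 27025 genes that have a window. Both decamers within 13 bases of each other, with at most 1 mismatch in all, were in 3 genes, Cdkn1a, Ccng1 and Bax, against 1.24% of all genes. The windows of these 6 genes are printed because the decamer is the feature that they share. Capitals mark the decamers.

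Cdkn1a, chr17:29090729-29091028, plus strand: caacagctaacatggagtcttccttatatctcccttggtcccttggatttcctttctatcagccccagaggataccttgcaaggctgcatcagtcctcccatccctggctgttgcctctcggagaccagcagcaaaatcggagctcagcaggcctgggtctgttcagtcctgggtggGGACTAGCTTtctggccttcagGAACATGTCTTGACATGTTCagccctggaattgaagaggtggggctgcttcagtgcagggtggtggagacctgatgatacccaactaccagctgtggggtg

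Ccng1, chr11:40755237-40755536, minus strand: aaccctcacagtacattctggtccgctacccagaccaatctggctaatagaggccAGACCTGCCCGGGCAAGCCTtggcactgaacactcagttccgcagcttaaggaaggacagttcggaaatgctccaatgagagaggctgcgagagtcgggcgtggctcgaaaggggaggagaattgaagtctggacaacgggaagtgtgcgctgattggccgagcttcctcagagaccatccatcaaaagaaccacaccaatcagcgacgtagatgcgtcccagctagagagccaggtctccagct

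Bax, chr7:45466849-45467148, minus strand: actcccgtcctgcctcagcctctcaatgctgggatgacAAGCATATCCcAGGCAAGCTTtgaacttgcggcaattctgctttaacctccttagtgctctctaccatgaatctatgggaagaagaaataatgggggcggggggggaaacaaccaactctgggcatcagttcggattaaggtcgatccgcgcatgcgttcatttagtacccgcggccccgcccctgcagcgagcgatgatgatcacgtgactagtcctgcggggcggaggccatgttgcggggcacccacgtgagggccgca

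Aen, chr7:78895677-78895976, plus strand: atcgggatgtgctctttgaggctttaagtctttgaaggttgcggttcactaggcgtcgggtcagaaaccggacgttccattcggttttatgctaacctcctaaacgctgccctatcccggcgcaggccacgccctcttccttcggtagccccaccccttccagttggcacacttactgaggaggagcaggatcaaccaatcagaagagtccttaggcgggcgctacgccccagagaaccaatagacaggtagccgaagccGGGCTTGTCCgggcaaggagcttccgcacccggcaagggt

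Ei24, chr9:36797285-36797584, minus strand: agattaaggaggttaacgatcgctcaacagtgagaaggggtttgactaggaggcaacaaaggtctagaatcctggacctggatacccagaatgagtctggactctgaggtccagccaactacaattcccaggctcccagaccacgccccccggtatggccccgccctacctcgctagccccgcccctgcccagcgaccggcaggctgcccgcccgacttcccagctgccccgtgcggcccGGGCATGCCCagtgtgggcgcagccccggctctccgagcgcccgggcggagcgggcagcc

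Mdm2, chr10:117710709-117711008, minus strand: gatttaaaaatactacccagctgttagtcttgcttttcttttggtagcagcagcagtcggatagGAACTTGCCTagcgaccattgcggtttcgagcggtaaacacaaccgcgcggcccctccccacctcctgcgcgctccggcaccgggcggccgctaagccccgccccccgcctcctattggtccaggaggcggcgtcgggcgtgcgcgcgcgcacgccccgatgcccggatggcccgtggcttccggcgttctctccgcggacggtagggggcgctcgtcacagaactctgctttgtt

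In the Cdkn1a window an exact decamer starts 51 bases before the start of transcription and a decamer with 1 mismatch follows it directly. A further exact decamer lies at position -73 of the same window. A second annotated Cdkn1a start, 2790 bases downstream, has a window without the decamer, as have the windows of Phlda3 and Eda2r. A match in a window is a description of letters, and p53 binding was not measured here. Of the members with no window printed, Phlda3 lies at chr1:135766119-135769136 (plus strand), Eda2r at chrX:97333840-97377216 (minus), Zmat3 at chr3:32334792-32366014 (minus) and Trp53inp1 at chr4:11156431-11174379 (plus), on mm10 in GENCODE M21.

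Phf2 itself was lower in KO libraries of both muscles. In gastrocnemius its level was 9.996, 11.4 and 8.24 TPM (the deposited unit, a share of the library scaled for gene length) in the Ctrl libraries against 6.74, 7.61 and 7.003 TPM with KO. The soleus values were 14.03, 10.002 and 14.98 TPM for Ctrl against 8.11, 9.06 and 6.79 TPM for KO. The groups did not overlap in either muscle, but the difference did not pass the limma test in gastrocnemius (log2 difference -0.41, adjusted p = 0.0601) or in soleus (-0.63, adjusted p = 0.326). The floxed exons are not named in the labels, and reads from cells other than fibres are counted too.

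Markers of muscle fibres were abundant in both tissues, and those of slow fibres in soleus. The summed level of 9 skeletal fibre genes was 155259 to 167158 TPM over the gastrocnemius libraries and 54255 to 80700 TPM over the soleus libraries, and that of 8 slow fibre genes 531 to 1208 TPM and 21625 to 44917 TPM. Of the 9 skeletal fibre genes, limma called 6 lower in control soleus than in control gastrocnemius, and Myh2 and Myh1 higher. Of all genes 10.2% were called lower and 31.4% higher. The sum of the 9 is therefore not a measure of how much fibre soleus holds. Some properties of the libraries went with genotype. Mitochondrially encoded genes took 22.01% to 24.1% of TPM in gastrocnemius Ctrl against 18.1% to 20.7% in KO, and 39.0% in soleus KO replicate 3 against 24.5% to 29.6% in the other 5 soleus libraries. The slope of log2 level, relative to the muscle's mean, on the fraction of G and C in a gene was -1.14 to -0.48 in gastrocnemius Ctrl and 0.50 to 1.01 in KO, and -2.57 in soleus KO replicate 3 against 0.21 to 0.93 in the rest of the soleus. In gastrocnemius the gene Gm12338 was at 99.4 to 194 TPM in each KO library and listed at 0 in each Ctrl library. In soleus it was above 0 in 3 libraries, from both genotypes. The number of genes above 0 was 18291 to 18699 in gastrocnemius Ctrl against 19676 to 20175 in KO. In soleus that number was 18453 to 19802 in Ctrl against 19463 to 19989 in KO, with overlap.

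Among control muscles the members spanned a wide range of levels. In gastrocnemius Ctrl the order by mean TPM was Ccng1 (354), Phlda3 (66.7), Ei24 (46.1), Mdm2 (26.7), Aen (20.9), Bax (20.0), Cdkn1a (10.3), Eda2r (5.26), Trp53inp1 (3.89) and Zmat3 (1.90). Of neighbours in this order, the libraries of Aen and Bax overlapped and those of no other pair did. In KO gastrocnemius Cdkn1a stood in 4th place, between Ei24 and Bax.

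**Figure D1:**
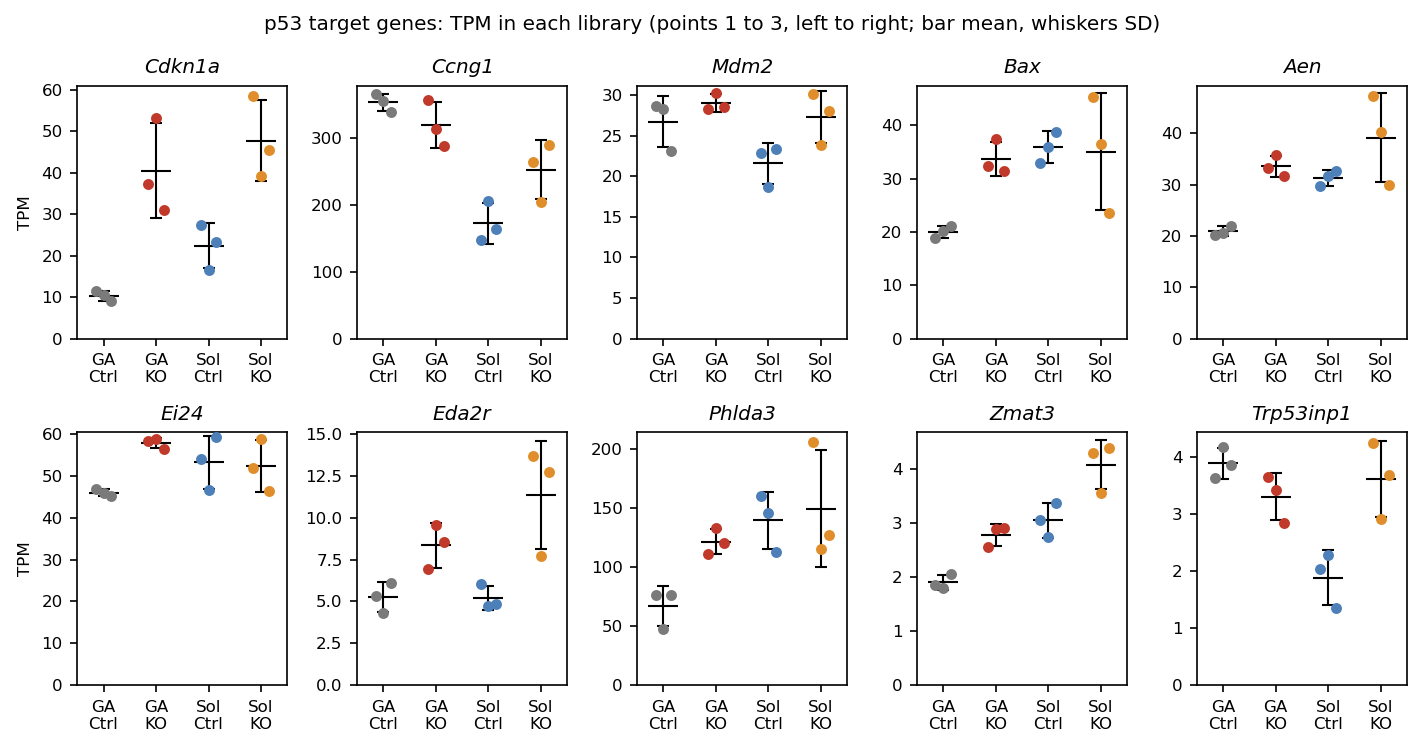
TPM of the 10 p53 target genes in each of the 12 libraries (points in replicate order; horizontal bars are group means and whiskers the SD), by muscle and genotype. Cdkn1a was at 8.96 to 11.4 TPM in gastrocnemius Ctrl against 31.1 to 53.2 TPM in KO, and at 16.6 to 27.3 TPM in soleus Ctrl against 39.2 to 58.5 TPM in KO.

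Cdkn1a (ENSMUSG00000023067.13, mm10 chr17:29090976-29100727, plus strand) encodes p21, which binds and inhibits the cyclin-dependent kinases that drive cells from G1 into S phase. It was higher in KO than in Ctrl in both muscles. In gastrocnemius it was at 11.4, 10.4 and 8.96 TPM in Ctrl against 37.3, 53.2 and 31.1 TPM in KO. The groups were far apart, with a KO mean 3.95 times the Ctrl mean and a log2 difference of 1.85 (SE 0.19, 95% interval 1.41 to 2.30, n = 3 against 3), the 26th largest rise of 11911 genes. Its soleus levels were 27.3, 16.6 and 23.2 TPM in Ctrl against 58.5, 39.2 and 45.5 TPM in KO. Here too every KO library was above every Ctrl library, the ratio of means was 2.13 and the log2 difference 1.07 (SE 0.21, interval 0.57 to 1.56), the 50th largest of 12148 genes. The muscles are mixed tissue. More or fewer cells of a type and more or less RNA per cell cannot be told apart in these or the following values.

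Ccng1 and Mdm2 restrain p53: Ccng1 encodes cyclin G1, which recruits a phosphatase that activates MDM2, and Mdm2 encodes the ubiquitin ligase that marks p53 for degradation. Ccng1 was the most abundant member. In gastrocnemius it was at 366, 356 and 340.2 TPM in Ctrl against 357, 314 and 288 TPM in KO, and the groups overlapped (log2 difference -0.15, SE 0.09). The soleus levels were 147, 206 and 164 TPM in Ctrl against 265, 205 and 289.8 TPM in KO, overlapping through KO replicate 2 (0.55, SE 0.18). Mdm2 also overlapped in gastrocnemius. It was at 28.7, 28.3 and 23.1 TPM in Ctrl against 28.3, 30.3 and 28.5 TPM in KO (0.12, SE 0.10). Soleus levels of Mdm2 were 22.8, 18.7 and 23.3 TPM in Ctrl against 30.1, 23.9 and 28.1 TPM in KO, without overlap (0.33, SE 0.14, interval 0.00 to 0.65).

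Bax, Aen and Ei24 belong to the branch that acts on cell death. Bax encodes the protein that permeabilises the outer mitochondrial membrane, Aen a nuclease that takes part in apoptosis, and Ei24 a membrane protein of the endoplasmic reticulum linked to autophagy. Bax was at 18.9, 20.2 and 21.0 TPM in gastrocnemius Ctrl against 32.3, 37.4 and 31.4 TPM in KO. All KO libraries were above all Ctrl libraries, with a ratio of means of 1.68 (log2 difference 0.72, SE 0.09). Aen was at 20.1, 20.6 and 21.998 TPM in Ctrl against 33.3, 35.8 and 31.8 TPM in KO, a ratio of 1.61 (0.66, SE 0.07). Ei24 differed least of the 3, at 47.0, 46.1 and 45.1 TPM in Ctrl against 58.4, 58.9 and 56.6 TPM in KO, with a ratio of 1.26 (0.33, SE 0.06) and no overlap.

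In soleus these 3 genes overlapped between genotypes, and KO replicate 3 was the lowest KO library for each. Bax was at 33.0, 36.0 and 38.8 TPM in Ctrl against 45.3, 36.5 and 23.5 TPM in KO (log2 difference -0.08, interval -0.60 to 0.45). Aen was at 29.7, 31.7 and 32.7 TPM in Ctrl against 47.3, 40.2 and 30.0 TPM in KO (0.29, interval -0.11 to 0.69). Ei24 was at 54.0, 46.6 and 59.3 TPM in Ctrl against 52.0, 58.9 and 46.6 TPM in KO (-0.02, interval -0.35 to 0.31). KO replicate 3 is the library with the high mitochondrial share and the steep GC slope. Without it the log2 differences were 0.18 for Bax, 0.46 for Aen and 0.06 for Ei24, so Bax and Ei24 turned from lower to higher in KO. Whether those library properties set the values was not tested.

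Eda2r and Phlda3 act at the cell surface and just below it. Eda2r encodes the receptor of the A2 form of ectodysplasin, which signals in muscle through NF-kappaB, and Phlda3 a small protein with a pleckstrin homology domain that keeps the kinase AKT from the membrane. Eda2r was at 5.33, 4.30 and 6.13 TPM in gastrocnemius Ctrl against 6.93, 9.57 and 8.57 TPM in KO, without overlap (ratio 1.59, log2 difference 0.58, SE 0.15). Soleus levels of Eda2r were 6.05, 4.72 and 4.84 TPM in Ctrl against 13.7, 7.70 and 12.7 TPM in KO, again without overlap (ratio 2.19, 0.97, SE 0.21). Its ratio of means in soleus was the largest of the 10 members there, next to 2.13 for Cdkn1a. Phlda3 was at 76.4, 47.2 and 76.5 TPM in gastrocnemius Ctrl against 111, 133 and 120.2 TPM in KO (ratio 1.82, 0.89, SE 0.19). Its soleus groups overlapped, at 159.9, 146 and 113 TPM in Ctrl against 206, 115 and 127 TPM in KO (0.06, interval -0.50 to 0.62).

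Zmat3 and Trp53inp1 were the least abundant members. Zmat3 encodes a zinc finger protein that binds RNA and affects splicing, and Trp53inp1 a protein that acts in p53 activation and autophagy. Zmat3 was at 1.86, 1.78 and 2.05 TPM in gastrocnemius Ctrl against 2.54, 2.88 and 2.89 TPM in KO (ratio 1.46, log2 difference 0.38, SE 0.09). Soleus Zmat3 was at 3.04, 2.73 and 3.37 TPM in Ctrl against 4.29, 3.55 and 4.38 TPM in KO (ratio 1.34, 0.32, SE 0.13), and the groups overlapped in neither muscle. Trp53inp1 had KO means on opposite sides of Ctrl in the muscles. It was at 3.63, 4.17 and 3.87 TPM in gastrocnemius Ctrl against 3.66, 3.43 and 2.85 TPM in KO, with overlap (-0.19, SE 0.10). Soleus Trp53inp1 was at 2.04, 2.28 and 1.35 TPM in Ctrl against 4.26, 2.92 and 3.68 TPM in KO, without overlap (ratio 1.92, 0.68, SE 0.17).

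**Figure D2:**
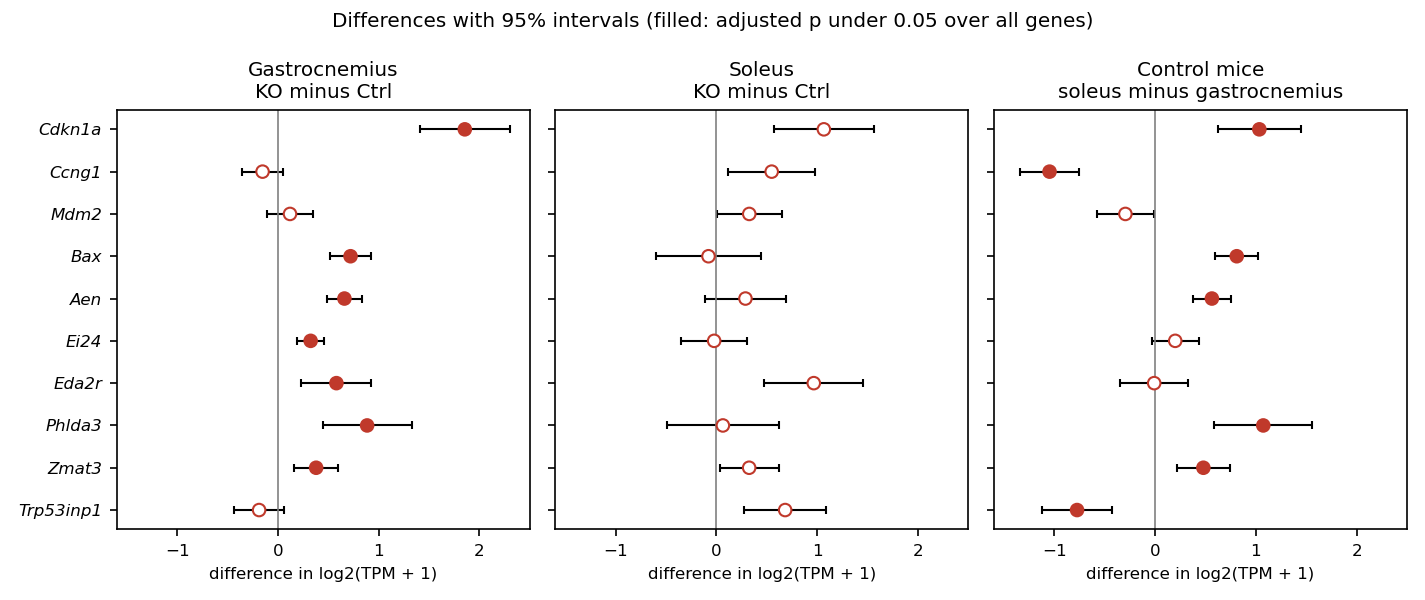
Log2 differences, on the log2(TPM + 1) scale, between KO and Ctrl in gastrocnemius and in soleus and between soleus and gastrocnemius of Ctrl mice, with 95% intervals. Filled points passed the limma test at an adjusted p under 0.05. Of the members Cdkn1a has the largest KO difference in both muscles, 1.85 in gastrocnemius and 1.07 in soleus.

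Counted over the list, 7 of the 10 members were called higher in KO gastrocnemius by limma at an adjusted p under 0.05 (Benjamini-Hochberg over all genes), where 9.32% of the 11911 genes tested were called higher. The same 7 had no overlap between groups, which held for 22.2% of genes in that direction. The median log2 difference was 0.48 over the members and 0.03 over all genes tested. Because the members were chosen with this contrast known, nothing is read from these shares. Cdkn1a, Bax and Aen kept their call when any 1 library was left out. Eda2r, Zmat3, Phlda3 and Ei24 each lost it without at least 1 library, and the number called was 4 without Ctrl replicate 1, Ctrl replicate 2 or KO replicate 3 and 3 without KO replicate 2. Calls over all genes fell in these fits too, from 1704 to 563, 781, 821 and 547 in the same order. A fit of all 12 libraries called 2 members and 524 of 12091 genes. With no level filter, 4 members and 1113 of 22837 genes were called. Of all calls in this contrast 65.1% were higher in KO, and 45.8% with quantile normalization.

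In soleus limma called none of the 10 members, and 9 of 12148 genes in all, 0.0741%. At an unadjusted p under 0.05, 6 members were higher in KO (Cdkn1a, Eda2r, Trp53inp1, Ccng1, Zmat3 and Mdm2) and none lower, where 4.53% of all genes were higher. 5 members had KO libraries all above Ctrl, a pattern of 8.9% of genes. The medians were 0.33 over the members and -0.02 over all genes. Cdkn1a, Eda2r and Zmat3 are the members whose groups stood apart in both muscles.

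Base composition and mitochondrial share moved with the gastrocnemius genotypes, and the members lie far apart in base composition. Bax (63.5% GC) and Phlda3 (62.6%) are above 99.3% and 98.8% of tested genes, and Trp53inp1 (38.8%), Ccng1 (40.8%) and Eda2r (40.9%) are among the lowest. The members highest in GC were higher in gastrocnemius KO, and of the 3 lowest only Eda2r was. Rescaled without mitochondrially encoded genes, Eda2r (0.54, limma adjusted p = 0.0621) and Zmat3 (0.36, limma adjusted p = 0.0631) lost their calls in gastrocnemius, as they did with median-ratio and quantile scaling. With a correction for GC content and length, an alternative chosen after seeing the data, the log2 differences in gastrocnemius were 1.72 for Cdkn1a, 0.60 for Aen, 0.72 for Eda2r, 0.44 for Zmat3 and 0.27 for Ei24. Bax went from 0.72 to 0.46 and remained called, and Phlda3 went from 0.89 to 0.65 and lost its call (limma adjusted p = 0.0835). Within the soleus genotypes, libraries with Gm12338 differed from those without by 0.57 in Ctrl and -0.39 in KO for Cdkn1a, a mean of 0.09. Over the members that mean ran from -0.42 (Ccng1) to 0.26 (Ei24). The shifts set Ctrl replicates 1 and 3 against Ctrl replicate 2, and KO replicate 2 against KO replicates 1 and 3. A small mean can hold shifts of opposite sign, as for Cdkn1a and for Eda2r (0.17 in Ctrl and -0.71 in KO). Only Ccng1, Trp53inp1, Phlda3 and Ei24 shifted the same way in both genotypes. In gastrocnemius the presence of Gm12338 goes with genotype in all 6 libraries, so whatever separates libraries with it from those without cannot be told apart from the loss of Phf2 there.

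**Figure D3:**
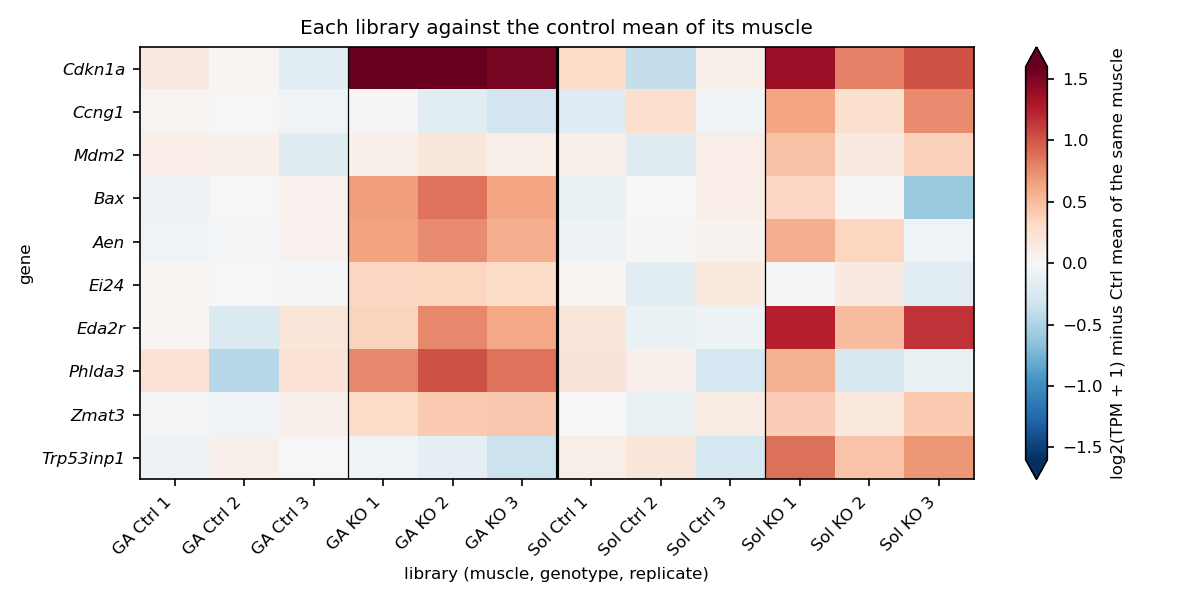
Log2(TPM + 1) of each member in each of the 12 libraries, relative to the mean of the Ctrl libraries of the same muscle. Cdkn1a was above its Ctrl mean in all 6 KO libraries, while Bax, Aen and Phlda3 were high in gastrocnemius KO and varied between the soleus KO libraries.

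Markers of other cell types were summed in the same libraries. Satellite cell markers ranged from 42.3 to 55.0 TPM in gastrocnemius Ctrl against 52.3 to 58.7 TPM in KO, macrophage and immune markers from 73.0 to 105 TPM and 82.9 to 145 TPM, and endothelial markers from 149 to 180 TPM and 144 to 173 TPM, all with overlap. Fibroblast markers overlapped too, at 1198 to 2412 TPM in Ctrl against 1772 to 4417 TPM in KO. Smooth muscle and pericyte markers did not, at 1134 to 1185 TPM in Ctrl against 1322 to 1562 TPM in KO, with 2 of 8 genes, Des and Acta2, called higher. Des is also made by muscle fibres and was most of that sum, at 891 to 945 TPM in Ctrl against 1049 to 1325 TPM in KO. The gap between the sums is therefore largely that of Des. Mfap4, 1 of 9 fibroblast markers, and Fabp4, 1 of 6 adipocyte markers tested, were called higher. Of all genes 9.32% were called higher in this contrast. Limma called none of the satellite cell, immune, endothelial, tendon, erythroid or Schwann cell markers. All 6 adipocyte markers tested had positive differences in gastrocnemius KO (median 0.78). So had all 6 tendon markers (median 0.77), and both medians were above the 0.48 of the members. No tendon marker and 1 adipocyte marker were higher without overlap, where 22.2% of all genes were. KO replicate 1 was the highest KO library for each tendon marker, as for Comp, at 70.9 TPM against 12.6 and 26.5 TPM. Most adipocyte markers were highest there too, as was Adipoq, at 21.8 TPM against 12.1 and 4.92 TPM. In soleus KO the median of the fibroblast markers was 0.48, and 3 of the 9 had KO libraries all above Ctrl, where 8.9% of all genes had. Immune markers had a soleus median of 0.33, and those of the other lists were below 0. They were -0.02 for satellite cell and adipocyte, -0.05 for erythroid, -0.12 for tendon and -0.17 for endothelial and skeletal fibre markers. Smooth muscle and pericyte markers were at -0.19, Schwann cell at -0.31 and slow fibre at -0.33. The part of these cells in the members' values was not tested, and no gene of these lists was at 0 in all libraries.

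The muscles were also compared within control mice. This contrast is not the one that chose the members, but both its arms are Ctrl libraries that entered that choice, so the values are again a description. Of the 10 members, limma called 5 higher in soleus than in gastrocnemius and 2 lower, and 3 were not called, where 31.4% of the 12048 genes tested were called higher and 10.2% lower. Over all genes the median log2 difference was 0.19 toward soleus, and scaling the libraries by median ratios brought it to 0.01 and the share of calls that were higher in soleus from 75.4% to 50.4%. Cdkn1a was 2.19 times as high in soleus (log2 difference 1.04, SE 0.18), with every soleus library above every gastrocnemius library. Phlda3 (2.09 times, 1.07, SE 0.21) and Bax (1.79 times, 0.81, SE 0.09) were higher as well. So were Zmat3 (1.61 times, 0.48, SE 0.11) and Aen (1.502 times, 0.56, SE 0.08).

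Ccng1 and Trp53inp1 were lower in control soleus. Ccng1 was at 0.487 of its gastrocnemius level (log2 difference -1.05, SE 0.12) and Trp53inp1 at 0.485 (-0.77, SE 0.15). Eda2r differed by -0.01 (interval -0.34 to 0.33), and Ei24 (0.20, SE 0.10) and Mdm2 (-0.29, SE 0.12) were not called. With median-ratio scaling all 7 calls remained, with Cdkn1a at 0.84, Phlda3 at 0.87, Bax at 0.61, Aen at 0.36, Zmat3 at 0.33, Ccng1 at -1.25 and Trp53inp1 at -0.92. Mdm2 was then called lower in soleus too (-0.49). With the GC and length correction Phlda3 lost its call (0.71).

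The gastrocnemius Ctrl libraries enter both this comparison and the gastrocnemius KO comparison, so the values are set side by side only. Cdkn1a, Bax, Aen, Zmat3 and Phlda3 were higher both in control soleus and in gastrocnemius KO. For Cdkn1a the control soleus mean was 22.4 ± 5.38 TPM (SD, n = 3), between 10.3 ± 1.22 TPM in gastrocnemius Ctrl against 40.5 ± 11.4 TPM in gastrocnemius KO. For Bax the control soleus mean of 35.9 ± 2.95 TPM was close to the 33.7 ± 3.23 TPM of gastrocnemius KO, and for Aen 31.4 ± 1.56 TPM stood beside 33.6 ± 2.04 TPM.

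The KO difference was then compared between muscles. In a fit of all 12 libraries, which again uses the contrasts that chose the members and is given as a description, limma called 33 of 12091 genes (0.273%) and none of the 10 members. At an unadjusted p under 0.05, 2 members, Trp53inp1 and Ccng1, were higher in soleus by this measure, as were 9.79% of genes. Cdkn1a, Bax, Phlda3 and Ei24 were lower by it, 4 members, as were 10.9% of genes. The difference of differences was 0.87 on the log2 scale for Trp53inp1 (interval 0.41 to 1.32) and 0.70 for Ccng1 (0.23 to 1.17). It was -0.79 for Cdkn1a (-1.47 to -0.11), -0.80 for Bax (-1.37 to -0.23) and -0.82 for Phlda3 (-1.55 to -0.09). Over the alternatives that kept all libraries it ran from -0.89 to -0.55 for Cdkn1a, -0.83 to -0.31 for Bax and -0.83 to -0.36 for Phlda3. With the GC and length correction the KO difference of Bax was 0.46 in gastrocnemius and 0.14 in soleus. That of Phlda3 was 0.65 and 0.28. Zmat3 had nearly the same value in both muscles (-0.05, interval -0.37 to 0.26). Soleus KO replicate 2 decided 2 of these: without it Ccng1 (0.85, limma adjusted p = 0.04996) and Trp53inp1 (0.98, limma adjusted p = 0.0437) were called. Leaving out that library also raised the calls over all genes, from 33 to 308.

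The gene of p53 itself was measured. Trp53 was at 13.7 ± 1.88 TPM in gastrocnemius Ctrl against 16.3 ± 0.452 TPM in KO (SD, n = 3), without overlap and without a call (log2 difference 0.24, limma adjusted p = 0.149). The soleus means were 18.6 ± 1.73 TPM for Ctrl and 19.6 ± 1.55 TPM for KO, with overlap (0.07, limma adjusted p = 0.856). p53 is controlled mainly through the stability of its protein, which was not measured.

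A list of 52 other p53 targets, of which 51 were matched and 40 passed the level filter in gastrocnemius, had members on both sides. In gastrocnemius KO 6 were called higher and 1 lower, against 9.32% and 4.99% of all genes, and the median log2 difference was 0.09, beside 0.03 over all genes. With the GC and length correction 2 were higher and 1 lower, where 670 and 600 of all 11911 genes were. In the fit of all 12 libraries the counts were 3 and 0, where 259 and 265 of 12091 genes were called. Gadd45a, which encodes a stress protein of muscle atrophy and DNA repair, went from 42.6 ± 6.85 to 80.3 ± 10.6 TPM (0.90, SE 0.14, limma adjusted p = 0.0101). Bbc3, which encodes the death protein PUMA, went from 1.98 ± 0.347 to 3.48 ± 0.107 TPM (0.60, SE 0.11, limma adjusted p = 0.0170). Ptp4a3, a phosphatase gene, went from 264 ± 6.44 to 361 ± 10.5 TPM (0.45, limma adjusted p = 0.00641).

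Fdxr, for ferredoxin reductase of mitochondria (0.51, limma adjusted p = 0.0225), Ak1, for an adenylate kinase of muscle (0.32, limma adjusted p = 0.0174), and Sfn, for a 14-3-3 protein (0.59, limma adjusted p = 0.0466), rose as well. Lpin1, for a phosphatidate phosphatase, fell by 0.38 on the log2 scale (limma adjusted p = 0.0418). The other 33 were not called. In soleus KO limma called 0 of the 39 tested, with a median of 0.02. At an unadjusted p under 0.05, 3 were higher and 1 lower, where 4.53% of all genes were higher. In control soleus 11 of 39 were called higher and 6 lower than in gastrocnemius, beside 31.4% and 10.2% of all genes. With median-ratio scaling that split was 7 and 8, where 2321 and 2280 of 12029 genes were called. With the GC and length correction it was 5 and 8, where 2282 and 2305 of 12048 genes were.

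**Figure D4:**
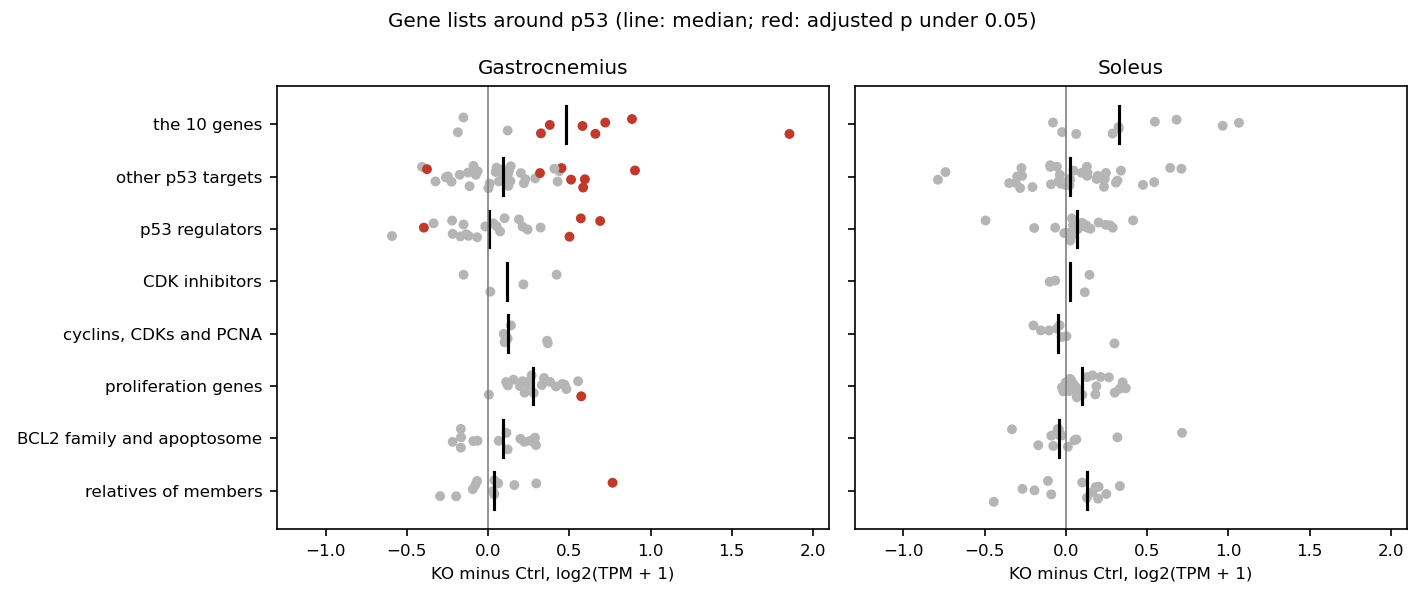
Log2 differences between KO and Ctrl, on the log2(TPM + 1) scale, of the genes of each list in gastrocnemius and soleus (points are genes, red where limma called them; black lines are medians). The medians in gastrocnemius were 0.48 for the 10 members and 0.09 for the 40 other p53 targets tested.

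Genes that act on p53 had a median near that of all genes. Of 22 tested regulators, 3 were called higher in gastrocnemius KO and 1 lower, where 9.32% and 4.99% of all genes were, and the median was 0.01. Their shares are near those of all genes. Rpl11 and Rpl23 encode ribosomal proteins that bind MDM2, and Npm1 a nucleolar protein that does so too. Rpl11 went from 304 ± 33.6 to 490 ± 43.6 TPM (log2 difference 0.69, limma adjusted p = 0.00947), Npm1 from 81.3 ± 3.86 to 122 ± 12.5 TPM (0.57, limma adjusted p = 0.0109) and Rpl23 from 248 ± 18.1 to 351 ± 30.2 TPM (0.50, limma adjusted p = 0.0133). Ep300, for the acetyltransferase p300, fell by 0.40 on the log2 scale (limma adjusted p = 0.0404). Limma called none of the 22 in soleus KO, with 0 higher and 1 lower at an unadjusted p under 0.05.

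Other kinase inhibitors and the cyclins that p21 acts on were not called in gastrocnemius KO. Among 4 tested inhibitors of cyclin-dependent kinases other than Cdkn1a, limma called none in gastrocnemius KO, with 1 higher at an unadjusted p under 0.05, where 19.7% of all genes were. Cdkn1c (p57) was at 165 ± 20.0 TPM in Ctrl against 223 ± 48.8 TPM in KO, Cdkn2d (p19) at 9.35 ± 1.02 and 11.01 ± 0.548 TPM, and Cdkn1b (p27) at 25.8 ± 1.95 and 23.2 ± 2.05 TPM. Among 7 cyclins, their kinases and Pcna, limma called none, with 1 higher at an unadjusted p under 0.05. The largest differences in that list were those of the D-type cyclins Ccnd1 (0.37, SE 0.15) and Ccnd2 (0.36, SE 0.19), and Ccnd3 was at 0.11 (SE 0.08). On the deposited TPM scale, which was the one these lists were counted on, all 7 had a positive difference, with a median of 0.12. All 20 tested genes of proliferating cells did too, with a median of 0.27 against 0.03 over all genes. At an unadjusted p under 0.05, 2 of them were higher, where 19.7% of all genes were. For many of them Ctrl replicate 2 was the lowest Ctrl library. Cdk1, for example, was at 3.44, 0.97 and 7.18 TPM in Ctrl against 4.96, 5.77 and 4.61 TPM in KO. Of the 20, 1 was called, Aurka, for a mitotic kinase, which went from 5.15 ± 0.292 to 8.19 ± 1.05 TPM (0.57, limma adjusted p = 0.0166). E2f1 (0.47, SE 0.15) and Mcm2 (0.28, SE 0.14) were not.

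Around Bax, limma called none of 14 tested genes of the BCL2 family and the apoptosome in gastrocnemius KO. At an unadjusted p under 0.05, 2 were higher, where 19.7% of all genes were. Bad (0.29, SE 0.10), Bok (0.29, SE 0.10) and Casp9 (0.22, SE 0.10) had the smallest p. In control soleus limma called 8 of these 14 higher than in gastrocnemius and none lower, where 31.4% of all genes were called higher and 10.2% lower before the shift toward soleus is scaled away. Of 12 relatives of the members by sequence or pathway, 1 was called higher, where 9.32% of all genes were. It was Zmat2, for a splicing protein with a zinc finger, going from 24.0 ± 1.92 to 41.5 ± 2.87 TPM (0.77, limma adjusted p = 0.00524). Traf6, which signals below Eda2r, was at -0.30 (SE 0.09) and Isg20, a nuclease relative of Aen, at 0.30 (SE 0.20), both without a call.

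Finally, the genes most like Cdkn1a over the 12 libraries were named by Pearson correlation of log2(TPM + 1) centred on each muscle's mean, among 11328 genes. The libraries differ in genotype and in base composition, which went together in gastrocnemius, so the values are a description. The 8 protein-coding genes with the highest r were Fndc10 (0.98), 6430548M08Rik (0.97), Sh3bp2 (0.97), Sctr (0.96), Me2 (0.96), Masp1 (0.95), Fzd6 (0.95) and Snapc5 (0.95). 6430548M08Rik was at 7.06 ± 0.853 TPM in gastrocnemius Ctrl against 16.8 ± 2.59 TPM in KO, and at 28.5 ± 1.08 and 55.5 ± 10.3 TPM in soleus. Fzd6, for a Wnt receptor, was at 4.64 ± 0.101 and 8.72 ± 0.830 TPM in gastrocnemius and 11.1 ± 0.609 and 16.8 ± 1.99 TPM in soleus. Among the members Zmat3 was the most like Cdkn1a, at 0.90 and rank 55, followed by Aen at 0.86 and Eda2r at 0.81. Trp53inp1 (0.24) and Ccng1 (0.17) were the least like it.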

How the data were processed

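Total RNA was sequenced from 12 muscle libraries. The authors deposited 2 tables, gastrocnemius and soleus, whose columns are libraries and whose values are TPM. Per the submitters' processing notes the build was mm10. Aligner, quantifier and annotation were not given in the sources used here. Since TPM holds no read numbers, depth and the error of low values cannot be stated. Between 18291 and 20175 genes per library were above 0. Of 34866 gene identifiers, 34652 matched GENCODE M21.

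Genes averaging 1 TPM or more were fitted as log2(TPM + 1) with limma 3.58.1 (R 4.3.3), with group means, a mean-variance trend and two-sided tests, adjusted by Benjamini-Hochberg over all genes and called at an adjusted p under 0.05. On this scale the differences of weakly expressed genes come out too small. Muscles were compared across tables because TPM is scaled within each library. The fit was tested on simulated data.

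The members, gene lists and tests were chosen with earlier results of these data known. Text names all members, Phf2, Trp53, up to 6 genes per list called in gastrocnemius (or the 3 of smallest p), and the 8 genes most like Cdkn1a. Sfn, the markers Des, Acta2, Mfap4 and Fabp4, and Gm12338 were named after their values were seen. Alternatives were other pseudocounts, filters, scalings and variance models, a replicate block and leaving out each library. Nothing in the labels shows the 3 samples of a group to be separate mice, so the p-values measure spread between samples, which may be technical. Bax overlaps Gm45808 on its strand, which was at 0 to 0.606 TPM. Sequences are from RefSeq windows (GRCm38.p6), read with Python 3.11.15.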

Additional observations from a re-analysis of the deposited data

Results flagged for a closer look

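Among the other p53 targets, 2 genes had KO differences that went opposite ways in the muscles: every KO library lay on one side of every Ctrl library in gastrocnemius and on the other side in soleus. The test of the difference between muscles did not pass for either. How many of all genes had this opposite pattern was not counted, so nothing is read from the number 2. Taking each muscle alone, all KO libraries were above all Ctrl libraries for 22.2% of genes in gastrocnemius and 8.9% in soleus. Ptp4a3 was higher in gastrocnemius KO and, at 405 ± 36.7 TPM in Ctrl against 252 ± 83.9 TPM in KO, had a lower mean in soleus KO. The soleus difference minus the gastrocnemius difference was -1.19 on the log2 scale (limma adjusted p = 0.0932). Rrm2b, for a subunit of ribonucleotide reductase, was at 5.70 ± 0.403 and 4.93 ± 0.340 TPM in gastrocnemius and at 5.35 ± 0.564 and 6.49 ± 0.403 TPM in soleus, a difference between muscles of 0.41 (limma adjusted p = 0.152).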

How the results depend on the processing

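For single members under the alternatives, 736 values kept their direction and side of the threshold, 35 lost a call, 9 gained one and 22 turned direction. Of the counts of calls, 185 stayed within 1.5 times, 48 were smaller and 10 larger. The cause of each change below was not tested, except that fits with a library left out have fewer samples.

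In gastrocnemius KO the genes called numbered 1704, and 1113 with no filter, 524 in a fit of all 12 libraries and 547 to 1596 with a library left out. Members called numbered 7, and 4, 2 and 3 to 7 in the same order. Other p53 targets called numbered 7, and 4, 3 and 2 to 6, with 4 under a filter at a mean of 5 TPM and 3 with the GC and length correction, which was chosen after seeing the data. Of the calls 65.1% were higher in KO, and 53.1% with median-ratio scaling, 45.8% with quantile normalization, 48.5% without mitochondrially encoded genes, 49.4% in the fit of all 12 libraries and 52.8% with the GC correction.

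In soleus KO the genes called numbered 9, and 0 with no filter, 5 under the filter at 5 TPM, 16 without mitochondrially encoded genes, 19 with array weights, 98 in the fit of all 12 libraries and 0 to 11 with a library left out. That fit of all 12 called 1 member, Eda2r (0.97, limma adjusted p = 0.0493). Soleus Ei24 turned to 0.019 with quantile normalization, 0.063 without mitochondrially encoded genes, 0.0090 with array weights, and -0.11 to 0.06 with a library left out. Soleus Bax turned to 0.0050, 0.098 and 0.14 without mitochondrially encoded genes, with array weights and with the GC correction, and ranged from -0.28 to 0.18 with a library left out. Soleus Phlda3 ranged from -0.19 to 0.22.

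Between control muscles no total of calls moved by over 1.5 times, but the directions did: 3782 genes were higher and 1232 lower, against 2321 and 2280 with median-ratio scaling, 2268 and 2370 with quantile normalization and 2282 and 2305 with the GC correction. Other p53 targets went from 11 higher and 6 lower to 7 and 8, 7 and 9, and 5 and 8 in the same order. So 75.4% of calls were higher in soleus, against 50.4% with median-ratio scaling, 48.9% with quantile normalization and 49.7% with the GC correction. There Ei24 turned to -0.0051 and -0.030 with the median-ratio and quantile scalings, and Eda2r to 0.057 and 0.059 without mitochondrially encoded genes and with array weights, and -0.12 to 0.091 with a library left out.

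For the KO difference between muscles the genes called numbered 33, and 14 with a pseudocount of 0.1, 21 with median-ratio scaling, 21 with quantile normalization, 16 without mitochondrially encoded genes, 292 with array weights, 16 with the GC correction and 1 to 308 with a library left out. Members called ranged from 0 to 2 there, and other p53 targets from 0 to 2, with 2 under array weights. Zmat3 turned to 0.063 without mitochondrially encoded genes and ranged from -0.11 to 0.021 with a library left out.

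Samples of the same number shared only a number: their deviations correlated at -0.38 to 0.20 over genes, and the labels give no pairing. With a replicate block the genes called numbered 722 in gastrocnemius KO, with 3 members and 3 other targets, 0 in soleus KO and 0 for the difference between muscles.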
